A study of Mus musculus with 12 samples.

Results

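The locus around Fgf5 and Prdm8 on mouse chromosome 5 was described by the direction in which replication forks crossed it in naive embryonic stem cells (ESCs) and in epiblast-like cells (EpiLCs). It was taken as chr5:97954183-98577033 of mm10, a window of 622.851 kb, and its 622 whole bins of 1 kb were used, out of 2725511 bins in each track. The window is also drawn in the publication, and its bins were taken by their coordinates, with no threshold on the reads. The gene annotation placed the 4 member genes in it: Antxr2, Prdm8, Fgf5 and Cfap299.

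In OK-seq, Okazaki fragments, the short pieces in which the lagging strand is made, are labelled with EdU, a thymidine analog, here for 2 min, and sequenced by strand. A fork that moves left to right leaves Okazaki fragments that map to the Crick strand, and a leftward fork leaves Watson fragments. The Crick percentage, Crick reads over all reads, therefore stands for the share of rightward forks. Forks leave an origin in both directions, so the Crick percentage rises from left to right across a zone where replication starts. Strand bias subtracts the Crick percentage left of a site from that right of it, and is positive at such a zone.

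There were 6 libraries, naive and EpiLC for each of 3 genotypes, each the sum of 2 replicates, which the supplement describes as separate cultures (12 samples). The control was KMT2C KO. KMT2C/D dKO lacked KMT2C and KMT2D, the latter after 4-hydroxytamoxifen induced CreER in KMT2C KO/KMT2D cKO cells of mixed C57BL/6 and 129 background. KMT2C/D dCD carried catalytically dead KMT2C and KMT2D, and the KMT2D cCD cells named in the methods are of the R1 line of 129 background. KMT2C is thus lost or inactive in all 6 libraries, and genotype and cell line cannot be told apart for dCD. Naive cells were kept in LIF and 2i, which hold ESCs in the naive state, and EpiLCs had grown without them for about 63 h. KMT2C and KMT2D are methyltransferases that place H3K4me1 at enhancers.

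Since the replicates are summed in the deposited tracks, each 95% interval below covers counting error only, and each difference compares libraries, not conditions. Reads copied by PCR were not told from independent molecules. The tracks hold no expression values, so neither the genotypes nor the expression of the 4 genes could be checked. Depth ranged from 3637464 to 4387433 reads in the naive libraries and from 11368666 to 13573782 in EpiLCs, on the autosomes and chromosome X.

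Fgf5 encodes a secreted fibroblast growth factor and is a standard marker of the step from naive to formative pluripotency. Prdm8 encodes a PR-domain protein that acts as a transcriptional repressor. Antxr2 encodes a membrane receptor of extracellular matrix and anthrax toxin, and Cfap299 a protein named for cilia and flagella. From left to right, Antxr2 (ENSMUSG00000029338, minus strand, chr5:97882783-98031043) had 76.861 kb in the window. Prdm8 (ENSMUSG00000035456, plus strand, chr5:98167198-98188991) and Fgf5 (ENSMUSG00000029337, plus strand, chr5:98254184-98277030) lay within it. Cfap299 (ENSMUSG00000057816, plus strand, chr5:98329304-98802047) had its start and 247.73 kb in it. GENCODE M21 lists 12 other genes there, of which Gm11111 is the only other protein-coding one. The others are C430019N01Rik, Gm42759, Gm42760, Gm8041, Gm8048, A730035I17Rik, which is antisense within Prdm8, E030032P16Rik, Gm43767, Mir703, Gm24279 and 1700010H22Rik. Positions below are in kb from the Fgf5 transcription start site (TSS), negative to its left.

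The promoters of 3 of the 4 genes are in the RefSeq promoter table (GRCm38.p6, 250 bases before to 50 after the start), and are shown because strand bias was measured at these starts. They are printed 5′ to 3′ along each gene, with every CG in capitals, a motif that reads the same on both strands.
Fgf5, chr5:98253934-98254233, plus strand: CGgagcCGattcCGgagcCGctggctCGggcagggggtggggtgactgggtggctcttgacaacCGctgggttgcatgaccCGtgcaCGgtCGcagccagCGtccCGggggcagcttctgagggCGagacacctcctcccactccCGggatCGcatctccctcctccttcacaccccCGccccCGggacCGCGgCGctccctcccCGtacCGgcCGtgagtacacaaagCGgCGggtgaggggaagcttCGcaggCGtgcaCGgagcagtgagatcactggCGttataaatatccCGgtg
Antxr2, chr5:98030968-98031267, minus strand: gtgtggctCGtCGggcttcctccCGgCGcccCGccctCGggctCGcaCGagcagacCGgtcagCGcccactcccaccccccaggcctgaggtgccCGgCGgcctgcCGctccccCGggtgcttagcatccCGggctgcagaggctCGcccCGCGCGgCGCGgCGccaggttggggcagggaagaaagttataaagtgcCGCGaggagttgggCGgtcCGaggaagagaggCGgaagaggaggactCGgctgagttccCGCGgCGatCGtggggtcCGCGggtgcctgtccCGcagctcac
Prdm8, chr5:98180619-98180918, plus strand: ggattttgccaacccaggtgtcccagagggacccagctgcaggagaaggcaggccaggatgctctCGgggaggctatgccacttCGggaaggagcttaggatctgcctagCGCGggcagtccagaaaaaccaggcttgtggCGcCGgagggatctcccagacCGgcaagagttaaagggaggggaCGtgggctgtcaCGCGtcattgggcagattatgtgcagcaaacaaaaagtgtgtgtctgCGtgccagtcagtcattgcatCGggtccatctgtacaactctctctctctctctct
The Fgf5 promoter holds 29 CG, as many as or more than which 12.9% of the 32851 promoters of this length hold, and that of Antxr2 holds 35 (6.95% hold as many). The Prdm8 stretch holds 12 CG (39.6% hold as many, and the median is 7). It belongs to a RefSeq start inside the Prdm8 gene as GENCODE draws it, so strand bias was measured at both starts. Cfap299 is not in the table.

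As counted, forks crossed the left side of the locus mostly leftward and the right side mostly rightward, in both states and in all 3 genotypes. In naive control the interval of the 150 kb right of Fgf5 held 50. Within the body of Antxr2, the Crick percentage was 32.1 in naive control, 30.3 in naive dKO, 22.9 in naive dCD, 33.2 in EpiLC control, 28.7 in EpiLC dKO and 23.3 in EpiLC dCD. Within the body of Cfap299 it was 58.6, 70.5 and 68.3 in the naive libraries and 66.4, 68.8 and 75.3 in EpiLCs, in the same order. All 6 Antxr2 values had intervals under 50, and all 6 Cfap299 values had intervals over 50. The highest Antxr2 value, 33.2 (28.4 to 38.5) in EpiLC control, lay under the lowest Cfap299 value, 58.6 (53.7 to 63.3) in naive control.

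Fgf5 lay where the values crossed the middle. In its body the Crick percentage was 48.9 in naive control, 56.8 in naive dKO, 60.5 in naive dCD, 42.8 in EpiLC control, 52.1 in EpiLC dKO and 44.3 in EpiLC dCD. Each of these 6 intervals held 50, the naive control one running from 34.96 to 62.996 and that of EpiLC dCD from 37.6 to 51.2. Across the body of Prdm8, to the left of Fgf5, the EpiLC values were 29.9 (23.1 to 37.8) in control, 33.3 (26.5 to 40.9) in dKO and 29.7 (23.3 to 36.9) in dCD. They were 43.6, 44.7 and 35.6 in the naive libraries, where 38 to 55 reads fell on the gene and all 3 intervals reached 50. Between Prdm8 and Fgf5 the EpiLC values were 44.4, 51.2 and 45.0, and the naive ones 53.8, 56.5 and 54.8. Between Fgf5 and Cfap299 the EpiLC values were 56.4, 57.9 and 56.2, with intervals over 50, and the naive ones 47.1, 55.2 and 59.8.

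**Figure D1:**
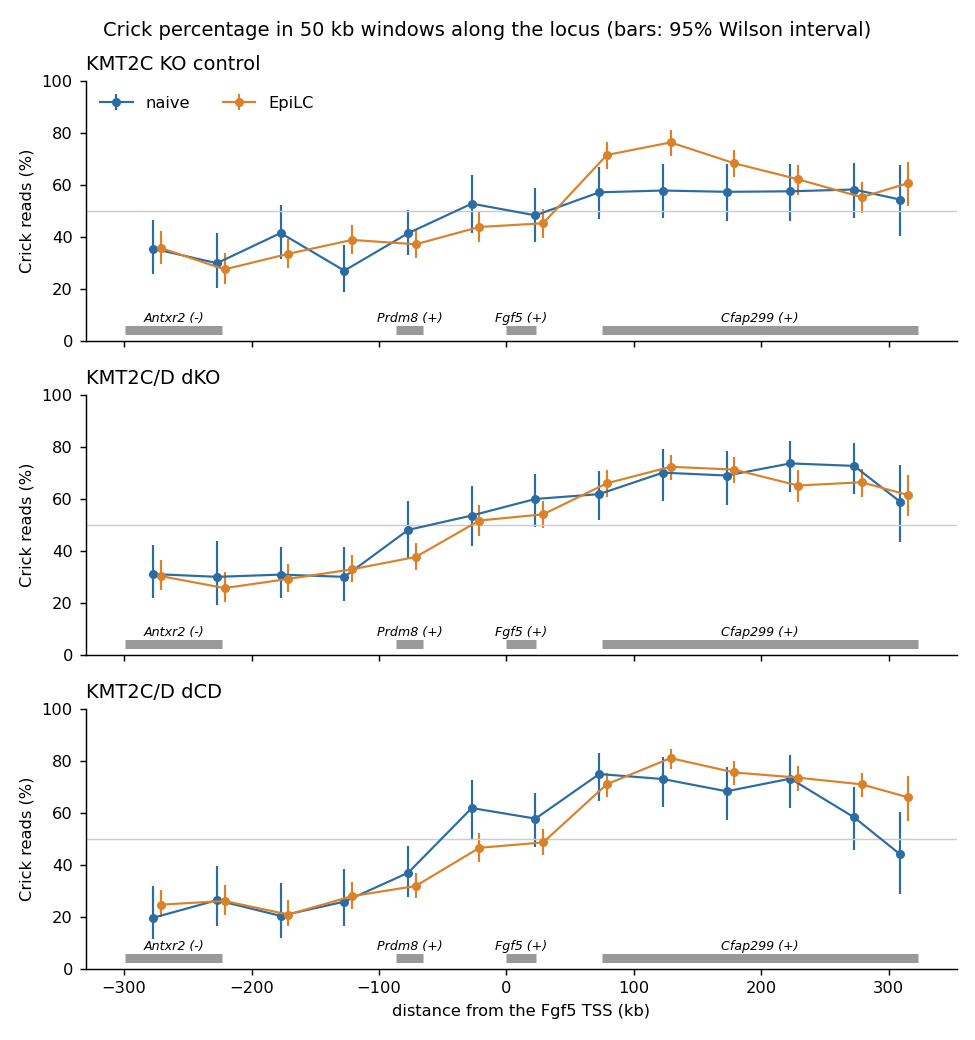
Crick percentage (y axis) in the 13 windows of 50 kb along the locus (x axis, kb from the Fgf5 TSS, the last window 22 kb long), with a panel for each genotype, naive in blue, EpiLC in orange, bars for 95% Wilson intervals and grey bars for the member genes with their strand. Values are under 50 over Antxr2 and over 50 along most of Cfap299 in each panel, and in the control the largest gaps between the states lie right of Fgf5.

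In windows of 50 kb, which held at least 34 reads in each library, the values ran from 27.0 to 58.2 in naive control and from 27.5 to 76.4 in EpiLC control. The dKO values ran from 30.0 to 73.7 in naive and from 25.7 to 72.4 in EpiLC, and the dCD values from 19.6 to 75.0 and from 20.9 to 81.1. Of the 13 windows in naive control, 3 had intervals under 50 and 0 over 50, against 6 and 5 in EpiLC control. The other naive libraries had 4 under and 5 over (dKO) and 5 under and 4 over (dCD), and both mutant EpiLC libraries 5 under and 6 over. The naive control was the only library with no 50 kb window above 50 beyond its counting error. In windows of 25 kb, which held 14 to 62 reads in the naive libraries, 3 windows of naive control passed 50, against 7 in each naive mutant and 8, 11 and 11 in EpiLC control, dKO and dCD. The highest 25 kb value in all 3 EpiLC libraries was in the same window, centred at 113 kb inside Cfap299, with 78.8 in control, 76.8 in dKO and 86.5 in dCD. In EpiLC control the largest rise between neighbouring 25 kb windows, from 47.9 to 67.2, was at 50.8 kb, between Fgf5 and Cfap299. It was at 75.8 kb in naive control and EpiLC dCD, at 151 kb in naive dKO, at -49.2 kb in naive dCD and at -74.2 kb in EpiLC dKO, so its place differed between libraries.

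Base composition moves with these values. EdU replaces T, and over the genome the Crick percentage of a 1 kb bin rose with the excess of T over A on the reference strand. The slope was 1.70 to 1.82 percentage points per point of T minus A in the naive libraries and 1.21 to 1.42 in EpiLCs. At the locus, T minus A was -5.81% over the body of Antxr2, -3.47% between Antxr2 and Prdm8, 0.0955% over Prdm8, 2.49% between Prdm8 and Fgf5, 0.604% over Fgf5, 0.192% between Fgf5 and Cfap299 and 3.44% over Cfap299. It was thus lowest at the left end and highest at the right end, like the Crick percentage. From the gap left of Fgf5 to the gap right of it, T minus A dropped. Over the same step the Crick percentage rose in all EpiLC libraries and in naive dCD (54.8 to 59.8). It fell in naive control (53.8 to 47.1) and naive dKO (56.5 to 55.2). The strand bias of the locus was therefore given as counted, after T minus A correction (the fitted part subtracted), and in bins of like composition.

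For these comparisons the left flank was the 150 kb to the left of Prdm8 (chr5:98017001-98167000) and the right flank the 150 kb to the right of Fgf5 (chr5:98278001-98428000), with 111 kb between them. A pair of stretches shows the composition at issue: 120 bases from the most A-rich bin of the left flank and the most T-rich bin of the right flank, among bins with at least 10 reads, on the plus strand of mm10 with every T in capitals. They were chosen after the reads were seen.
Left flank, chr5:98116401-98116520: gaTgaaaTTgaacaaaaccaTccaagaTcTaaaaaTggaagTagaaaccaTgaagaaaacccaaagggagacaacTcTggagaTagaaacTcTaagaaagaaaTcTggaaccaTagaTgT
Right flank, chr5:98373401-98373520: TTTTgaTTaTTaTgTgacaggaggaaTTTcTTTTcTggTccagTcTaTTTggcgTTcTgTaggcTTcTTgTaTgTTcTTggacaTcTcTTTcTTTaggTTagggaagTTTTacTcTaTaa
The left bin (chr5:98116001-98117000) holds 455 A and 167 T, and the 6 libraries together gave 19 Watson and 0 Crick reads there. The right bin (chr5:98373001-98374000) holds 168 A and 467 T, and gave 2 Watson and 17 Crick reads. Of these bins, 97.8% and 94.2% of the bases are marked as repeats in the reference. Both bins are extremes and stand for few reads.

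Within bins of like composition, the flanks still differed with the 3 genotypes summed, but not in each naive library. In bins whose T minus A was within 5 percentage points of 0 (75 bins left, 81 right), the Crick percentage with the 3 genotypes summed was 32.4 on the left and 58.5 on the right in naive cells, and 31.6 and 65.2 in EpiLCs. The strand bias in these bins was 26.04 (19.1 to 32.6) in naive cells and 33.6 (30.1 to 36.9) in EpiLCs. In bins with an excess of A over 5% it was 19.7 (8.54 to 31.2) and 30.3 (24.5 to 36.0), and in bins with an excess of T over 5% it was 34.1 (22.1 to 45.4) and 41.6 (35.5 to 47.5). Both flanks had higher Crick percentages where T was in excess, and the right flank was higher than the left in each class and state. These sums weight libraries by their reads. Taken singly, naive control had a strand bias of 6.37 (-9.80 to 28.6) in bins with an excess of A and of 11.7 (0.0209 to 22.9) in bins within 5 points of 0. Naive dKO had 15.3 (-3.00 to 34.6) and 28.9 (16.7 to 39.9) in these classes, and naive dCD 34.6 (14.96 to 51.9) and 39.5 (27.1 to 50.1). The intervals of naive control and naive dKO held 0 in the bins with an excess of A.

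**Figure D2:**
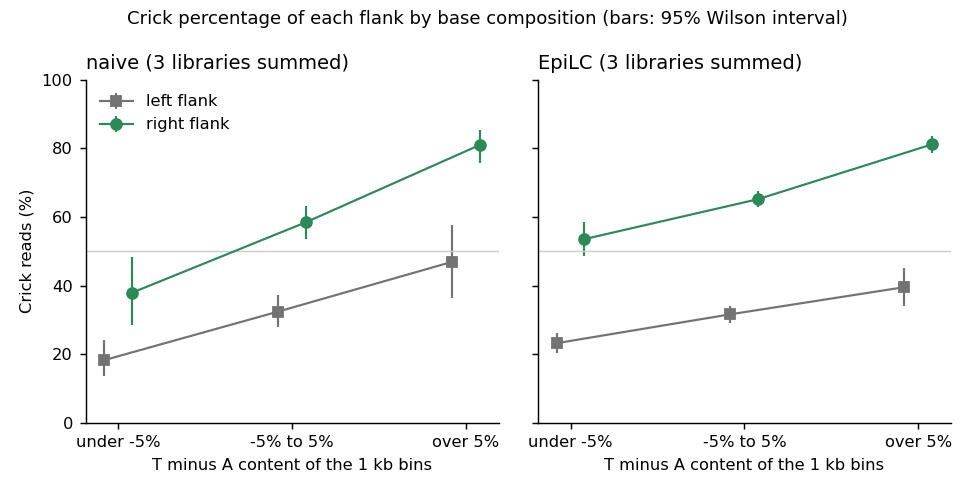
Crick percentage (y axis) of the left flank (grey squares) and the right flank (green circles) in 3 classes of 1 kb bins by T minus A content (x axis), for naive cells and EpiLCs with the 3 genotypes summed, and 95% Wilson intervals as bars. The right flank lies above the left in each class, and both rise with T minus A.

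Strand bias across the locus, the right flank minus the left, was positive in all 6 libraries. In naive control the Crick percentage was 31.7 on the left (259 reads) and 55.8 on the right (251 reads), a strand bias of 24.1 (15.6 to 32.2). It was 34.5 (25.7 to 42.6) in naive dKO and 45.4 (36.3 to 53.3) in naive dCD. In EpiLCs it was 32.7 (28.1 to 37.1) in control, 37.0 (32.6 to 41.2) in dKO and 47.2 (43.1 to 51.1) in dCD. The control had the lowest and dCD the highest value in both states. With the same flanks set at 50268 places along the genome, every 50 kb, the interval lay above 0 at 25.6% of places in naive control, 25.2% in naive dKO, 26.9% in naive dCD, 28.6% in EpiLC control, 29.8% in EpiLC dKO and 30.8% in EpiLC dCD. A value at least as high as here was reached at 6.69%, 2.18% and 1.65% of places in naive control, dKO and dCD, and at 0.467%, 0.273% and 0.0756% in the EpiLC libraries.

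Correction lowered all 6 values. Strand bias was then 13.1 (4.51 to 21.4) in naive control, 23.98 (14.97 to 32.4) in naive dKO, 36.6 (27.2 to 44.9) in naive dCD, 26.3 (21.6 to 30.9) in EpiLC control, 29.0 (24.5 to 33.3) in EpiLC dKO and 38.2 (33.9 to 42.3) in EpiLC dCD. The Crick percentage of the right flank in naive control was then 49.5 (43.4 to 55.7), against 55.8 (49.6 to 61.8) as counted, and both intervals held 50. The Cfap299 body in naive control went from 58.6 to 52.1. A strand bias at least as high was reached at 13.1%, 3.57% and 1.51% of places in naive control, dKO and dCD after correction, and at 0.489%, 0.271% and 0.0637% in the EpiLC libraries. All 6 intervals of strand bias stayed above 0, and control remained lowest and dCD highest in each state.

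**Figure D3:**
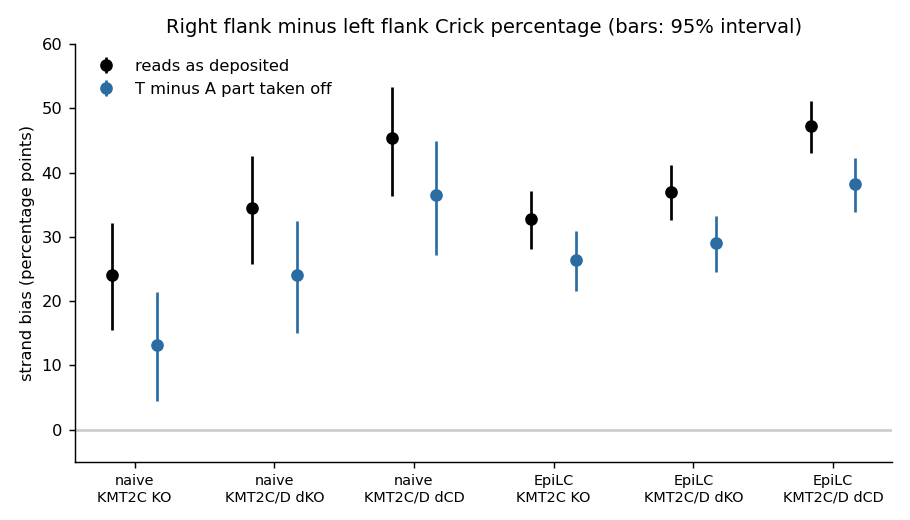
Strand bias of the locus (y axis, percentage points, right flank minus left flank Crick percentage) in the 6 libraries (x axis), with reads as deposited in black, with the T minus A correction in blue, and 95% intervals as bars. All values lie above 0, from 13.1 to 47.2.

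The comparison of EpiLCs with naive cells asks how fork direction at the locus changed with the exit from naive pluripotency. In control, the strand bias of the locus was 8.58 points higher in EpiLCs than in naive cells, with an interval of -0.711 to 18.2 that held 0. The difference was 2.46 (-6.69 to 12.2) in dKO and 1.81 (-7.09 to 11.7) in dCD. Over the genome, 10.8% (control), 8.02% (dKO) and 12.8% (dCD) of places had a difference above 0 beyond its interval. The control value was 13.2 (3.64 to 22.9) after T minus A correction. In bins within 5 points of 0 it was 15.2 (2.31 to 28.4). Both values lay within the interval as counted. In dKO and dCD the intervals held 0 in both settings, with 4.99 and 0.467 in dKO and 1.64 and 4.23 in dCD. The change in dKO minus that in control was -6.12 (-19.4 to 7.37), and that in dCD minus that in control -6.77 (-19.9 to 6.79). After correction these were -8.23 (-21.9 to 5.61) and -11.6 (-25.1 to 2.39), so all 4 intervals held 0.

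Window by window, control differed between the states in 1 window left of Prdm8 and in a pair right of Fgf5. Of the 13 windows of 50 kb, 3 differed beyond the interval in control, all higher in EpiLCs, where 15.1% of all windows of the genome differed. The window at 126 kb, inside Cfap299, went from 57.8 in naive control to 76.4 in EpiLC control, a difference of 18.5 points (7.14 to 30.2). The window at 75.8 kb, around the Cfap299 start, went from 57.1 to 71.5, by 14.4 points (3.30 to 25.7). The third, at -124 kb between Antxr2 and Prdm8, went from 27.0 to 38.8 (0.423 to 21.8 for the difference of 11.8). After correction it was 10.7 with an interval that reached past 0 (-0.958 to 20.998), and 2 windows differed (genome 11.3%). In dKO 0 of 13 windows differed, as counted (genome 11.5%) and corrected (genome 8.71%), and the differences as counted ran from -10.4 to 4.18. In dCD 3 differed (genome 18.9%): the window at -24.2 kb, just left of Fgf5, was lower in EpiLCs (61.9 to 46.6, a difference of -15.3, interval -27.6 to -1.70), and the last pair, at 276 kb and at the right end, were higher. After correction 3 differed in dCD (genome 13.6%).

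Gene by gene, the body of Cfap299 had 363 to 403 reads in the naive libraries, against 37 to 112 for the other members, and the share of gene bodies that changed over the genome was not computed. It was 7.79 points higher in EpiLCs in control (2.45 to 13.2) and 6.95 higher in dCD (1.91 to 12.3), while the dKO difference was -1.74 (-6.69 to 3.53). After T minus A correction these were 10.01, 7.93 and -0.584. Over the bodies of Antxr2, Prdm8 and Fgf5 all intervals held 0. For Fgf5 the differences were -6.13 (-22.1 to 9.91) in control, -4.61 (-21.1 to 12.9) in dKO and -16.2 (-31.7 to 1.01) in dCD. The Fgf5 interval is wide because the naive libraries had 37 to 45 reads in the gene.

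The comparison of dKO with control, which itself lacks KMT2C, asks whether fork direction at the locus depended on KMT2D. That of dCD with control also compares cell lines. Both mutants are set against the same control libraries. In naive cells, dKO minus control was 10.4 (-1.54 to 22.2) and dCD minus control 21.3 (9.17 to 32.9). In EpiLCs they were 4.30 (-1.92 to 10.5) and 14.5 (8.46 to 20.6). Of all places of the genome, 10.2% in naive cells and 11.4% in EpiLCs had a dCD value above that of control beyond the interval, and 5.46% and 7.24% a dKO value. The strand bias of the locus was thus higher in dCD than in control in both states, also after T minus A correction (23.4 and 11.9). For dKO in naive cells the interval held 0 after this correction (10.9, -1.40 to 22.9) and left it in bins within 5 points of 0 (17.2, 0.587 to 33.2).

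The dCD libraries had steeper fork profiles over the whole genome. The amplitude, the standard deviation of the Crick percentage over 50 kb windows without its counting variance, was 12.6, 13.2 and 16.5 points in naive control, dKO and dCD and 9.73, 10.6 and 12.2 in the EpiLC libraries. With each library divided by its amplitude relative to naive control, dCD minus control was 10.7 (0.0401 to 21.1) in naive cells and 6.26 (-0.895 to 13.5) in EpiLCs, so the EpiLC difference no longer left 0. On that scale EpiLC minus naive was 18.3 (8.21 to 28.5) in control, 10.99 (1.74 to 20.7) in dKO and 13.8 (6.44 to 21.9) in dCD, all above 0. The scaling itself raised the EpiLC values relative to the naive ones, since EpiLC amplitudes were lower, and the share of places above 0 was not computed. After T minus A correction the amplitudes were 8.80, 9.60 and 12.4 in naive control, dKO and dCD and 7.61, 8.04 and 9.66 in EpiLCs. Whether the amplitude reflects the library or the cells was not tested.

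The windows in which dCD and control differed lay on opposite sides. In naive cells 5 of 13 windows differed (genome 13.9%), 3 higher on the right between 75.8 and 226 kb and 2 lower on the left at -274 and -174 kb. In EpiLCs 6 differed (genome 15.5%), 3 higher at 176, 226 and 276 kb and 3 lower at -274, -174 and -124 kb. The largest of these in EpiLCs was at 276 kb inside Cfap299, with 71.0 in dCD against 55.3 in control (8.09 to 23.3 for the difference). In dKO, 1 of 13 windows differed from control in naive cells (genome 8.46%), at 226 kb, and 2 in EpiLCs (genome 9.95%), at 25.8 kb over Fgf5 (54.1 against 45.2) and at 276 kb (66.4 against 55.3). After correction the counts were 2 in naive and 5 in EpiLC dCD (genome 10.7% and 12.6%) and 1 and 2 in dKO (6.91% and 8.54%). The windows lost in naive dCD kept most of their size, at 126 kb from 15.2 to 14.8 (-0.481 to 29.1), at 226 kb from 15.7 to 15.4 (-0.633 to 30.4) and at -274 kb from -15.8 to -12.1 (-27.3 to 4.52), and the one lost in EpiLC dCD, at 176 kb, went from 7.29 to 5.79 (-1.53 to 13.1).

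By gene, the values are given as a description, since the share of gene bodies that differed over the genome was not computed here either. The Cfap299 body was higher than in control by 11.98 points (5.31 to 18.5) in naive dKO, by 9.76 (2.92 to 16.4) in naive dCD and by 8.91 (5.69 to 12.1) in EpiLC dCD, but by 2.45 (-0.983 to 5.88) in EpiLC dKO. Over Antxr2 the only difference beyond its interval was that in EpiLC dCD, -9.94 (-16.6 to -3.26). Between Antxr2 and Prdm8 the EpiLC values were lower by 5.45 points in dKO (interval -10.3 to -0.597) and by 9.88 in dCD (-14.6 to -5.11). The dKO interval held 0 after T minus A correction (-4.52, -9.46 to 0.448). Over Prdm8 and Fgf5, and in the gaps on either side of Fgf5, no mutant differed from control beyond its interval in either state.

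The point where leftward forks give way to rightward ones was read from the running sum of Crick minus Watson reads, which falls while leftward forks prevail and rises where rightward forks do. Its lowest point was at 59.8 kb in naive control, -77.2 kb in naive dKO, -50.2 kb in naive dCD, 36.8 kb in EpiLC control, -58.2 kb in EpiLC dKO and 25.8 kb in EpiLC dCD. As counted, all 6 lay between the start of Prdm8, at -87.0 kb, and that of Cfap299, at 75.1 kb. In both control libraries the point lay to the right of Fgf5 and in both dKO libraries inside or just right of Prdm8. The curve is flatter from the end of Prdm8 to the Cfap299 start than to either side. In EpiLC control and dCD it still fell over Fgf5, where Watson reads outnumbered Crick reads (87 to 65 and 112 to 89). After T minus A correction the dKO points moved to 34.8 kb in naive cells and -5.18 kb in EpiLCs, and that of naive control to 81.8 kb, right of the Cfap299 start. Control had the rightmost point in both states with and without correction, while naive dKO and dCD changed places. At the right end the sum was -5.68 per 100 reads in naive control and 7.53 and 3.58 in naive dKO and dCD, against 1.48, 3.33 and 5.64 in the EpiLC libraries. After correction these were -8.00, 4.89 and -0.474 in the naive libraries and -0.415, 1.34 and 2.86 in EpiLCs, so the sign turned in naive dCD and EpiLC control.

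**Figure D4:**
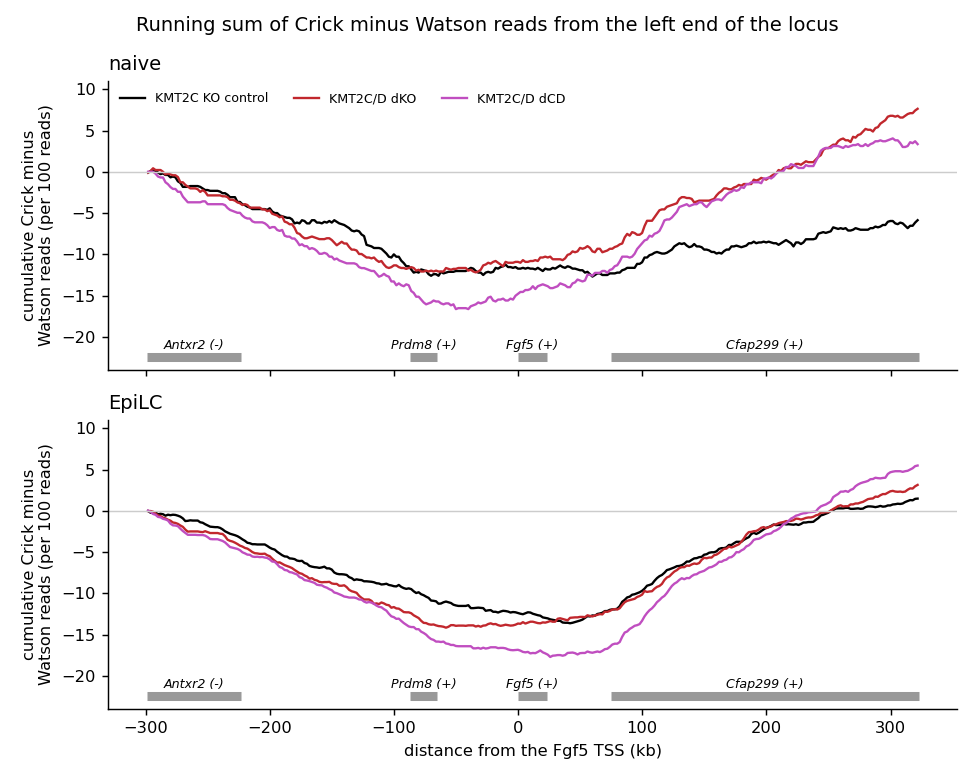
Running sum of Crick minus Watson reads per 100 reads of the locus (y axis) from its left end (x axis, kb from the Fgf5 TSS), for naive cells and EpiLCs, with control in black, dKO in red and dCD in magenta. All curves fall over Antxr2, are flatter between Prdm8 and Cfap299 and rise over Cfap299, and the naive control curve rises least. In EpiLC control and dCD the fall goes on over Fgf5.

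At single start sites, strand bias was measured over 25 kb to each side. At the Cfap299 TSS it was 19.98 in naive control, 20.6 in naive dKO, 22.2 in naive dCD, 7.14 in EpiLC control, 11.7 in EpiLC dKO and 18.3 in EpiLC dCD. All 6 values were positive, and 4 of 6 intervals lay above 0, the exceptions being naive control (-0.712 to 38.5) and EpiLC control (-3.25 to 17.5). Of the 20463 TSSs tested, 20%, 17.7% and 19.4% had such an interval above 0 in naive control, dKO and dCD, and 20.9%, 25.1% and 26.8% in EpiLC control, dKO and dCD. After T minus A correction the values at Cfap299 were 11.1, 13.6 and 13.2 in the naive libraries and 0.332, 3.69 and 10.2 in EpiLCs, and EpiLC dCD alone (0.528 to 19.7) kept an interval above 0, where 9.06%, 7.87% and 9.02% of TSSs had one in the naive libraries and 9.88%, 11% and 13.1% in EpiLCs.

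At the Fgf5 TSS strand bias was -6.88 in naive control, 2.21 in naive dKO, -1.47 in naive dCD, -4.39 in EpiLC control, 0.124 in EpiLC dKO and -6.47 in EpiLC dCD. All 6 intervals held 0, and the EpiLC ones bounded it to between -16.3 and 10.8 points. No zone where forks part was therefore detectable at the Fgf5 start itself at this depth, in either state. The change with state was 2.49 (-20.4 to 24.8) in control, -2.09 (-25.3 to 21.5) in dKO and -4.99 (-28.1 to 18.0) in dCD.

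At the Antxr2 TSS the values were 11.1, 15.8 and -2.07 in naive control, dKO and dCD and 0.704, -0.439 and 12.6 in the EpiLC libraries. Of these the EpiLC dCD value alone had an interval above 0 (0.945 to 23.4). The naive values rest on 12 to 37 reads on a side.

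At the Prdm8 TSS strand bias was 22.2 (4.70 to 37.6) in naive control and -10.8 (-21.5 to 0.156) in EpiLC control, a difference of -32.9 (-51.8 to -12.3). It was 3.97 and -2.76 in naive and EpiLC dKO and 4.04 and 7.29 in naive and EpiLC dCD, and neither change left 0. Over the TSSs tested, 8.31% (control), 7.61% (dKO) and 7.93% (dCD) changed beyond the interval. Of the 4 member genes, Prdm8 in control was the only TSS whose strand bias changed with state, 1 of 12 values. At the RefSeq start within Prdm8 (position 98180869), the control change was -19.1 (-38.4 to 1.94), with 23.1 in naive and 4.03 in EpiLC. In EpiLCs the Prdm8 TSS value was 18.1 points higher in dCD than in control (3.84 to 31.97), the only one of 16 mutant minus control differences at the 4 genes that left 0. At the RefSeq start it was 5.42 (-8.92 to 19.7). Over all TSSs, 6.87% (dKO) and 6.38% (dCD) differed from control in naive cells and 6.21% and 6.69% in EpiLCs.

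**Figure D5:**
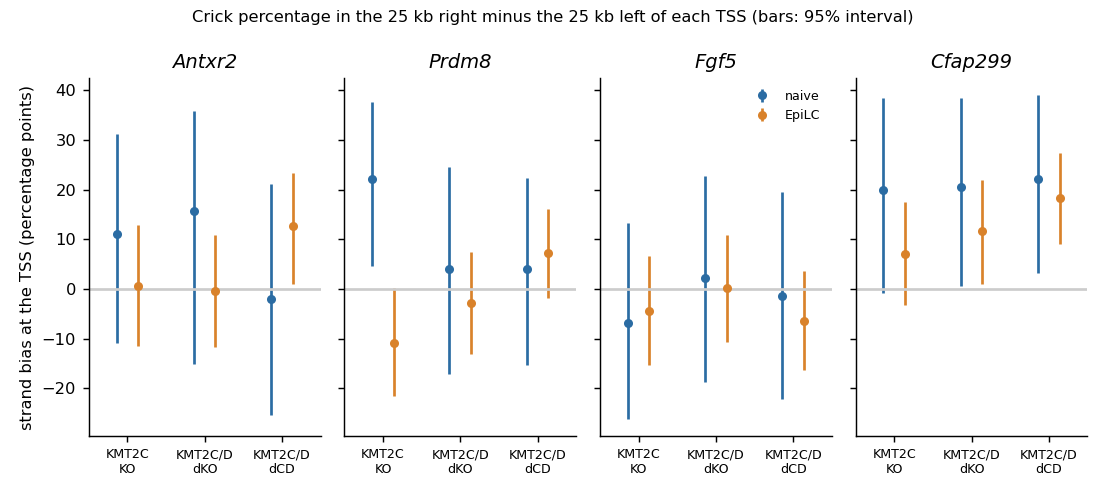
Strand bias (y axis, percentage points) over 25 kb on either side of the TSS of Antxr2, Prdm8, Fgf5 and Cfap299 in the 3 genotypes (x axis), naive in blue and EpiLC in orange, with 95% intervals as bars. Values at Cfap299 are all positive, those at Fgf5 lie around 0, and Prdm8 in control goes from 22.2 to -10.8.

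Where the mean strand bias of the 3 genotypes peaked at 10 points or more, 10 maxima were found in naive cells and 3 in EpiLCs, and their values are a description, since the same reads chose them. The limit was the same in both states, but the naive libraries had fewer reads. Counting error therefore passes it more often in naive cells. The counts cannot show whether the states differed in maxima, and no count over the genome was set beside them. Each of the 3 EpiLC maxima had a naive maximum within 10 kb. The one at -71.2 kb lay inside Prdm8. It read 11.8 in control, 19.1 in dKO and 14.1 in dCD in EpiLCs, and 22.2, 13.7 and 20.5 in the naive libraries. The one at 67.8 kb, 7.30 kb left of the Cfap299 start, read 7.54, 16.1 and 28.2 in EpiLCs and 22.9, 22.9 and 0.851 in naive cells. The one at 231 kb, deep in Cfap299, read 20.8, 14.04 and -1.21 in EpiLCs and 18.2, 16.1 and 19.9 in naive cells. As counted, no maximum in either state lay within 25 kb of the Fgf5 TSS. After T minus A correction there were 8 and 2 maxima. Of the 8 naive ones, 5 were at the same positions as before, at -169, -73.2 (inside Prdm8, near its RefSeq start), 229, 278 and 314 kb. In EpiLCs the maxima at 67.8 and 231 kb were no longer found, and those found were at -64.2 and 37.8 kb.

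Read density rose over the locus in EpiLCs. Relative to the genome, it was 1.003 (0.943 to 1.07) in naive control, 1.02 in naive dKO and 1.01 in naive dCD, and 1.26 (1.22 to 1.303), 1.18 (1.14 to 1.22) and 1.22 (1.18 to 1.26) in EpiLC control, dKO and dCD. The EpiLC over naive ratio was 1.26 (1.17 to 1.35) in control, 1.16 (1.08 to 1.24) in dKO and 1.21 (1.13 to 1.31) in dCD, and 0.270%, 1.08% and 1.52% of stretches of the same length along the genome had ratios as high. Scaled to chromosome 5, the values were 0.954, 0.969 and 0.956 in the naive libraries and 1.21, 1.12 and 1.17 in EpiLCs. The Fgf5 body stood at 1.47, 1.38 and 1.63 in EpiLC control, dKO and dCD against 1.13, 1.04 and 1.15 in the naive libraries, and the Prdm8 body at 1.16 to 1.55 in the 6 libraries. The Antxr2 body was lowest, at 0.787 to 0.885 in naive cells and 0.932 to 1.01 in EpiLCs. The cause of the rise was not tested.

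Other genes of the FGF pathway were measured at their TSSs over the same 25 kb: the ligands Fgf4, Fgf8 and Fgf15 beside Fgf5, the receptors Fgfr1, Fgfr2, Fgfr3 and Fgfr4, and the feedback inhibitors and targets Spry1, Spry2, Dusp6, Etv4 and Etv5. Of these 13 genes with Fgf5, 0 changed with state in control, 1 fell in dKO and 1 rose and 2 fell in dCD, against the 8.31%, 7.61% and 7.93% of all TSSs. Named after their values were seen, these were Fgfr2 in dKO (-24.5, -43.2 to -2.89), and Fgf15 (24.7, 5.71 to 43.0), Spry2 (-29.3, -51.0 to -3.60) and Etv5 (-23.5, -41.9 to -2.54) in dCD. After T minus A correction, where 6.26%, 6.05% and 5.92% of all TSSs changed in control, dKO and dCD, the Fgf15 interval still left 0 (26.01, 6.66 to 44.5), against -19.5 (-39.5 to 2.30) for Fgfr2, -25.4 (-48.1 to 0.230) for Spry2 and -20.4 (-39.96 to 0.520) for Etv5. Against control, 1 of the 13 genes was lower in naive dKO, 1 in naive dCD and 1 in EpiLC dCD, and 2 were higher in EpiLC dKO (6.87%, 6.38%, 6.69% and 6.21% of all TSSs differed in these comparisons), Fgf15 (19.04, 4.29 to 33.5) and Fgfr4 (16.6, 1.46 to 31.3). The lower one was Etv4 each time, with -33.4 (-56.6 to -7.96), -25.5 (-49.2 to -0.380) and -14.9 (-28.99 to -0.555). The naive dKO and dCD values are set against the same control library, so they are not independent. After correction the Etv4 differences were nearly as large, -33.6 (-57.1 to -7.63), -25.6 (-50.2 to 0.4502) and -14.5 (-28.8 to 0.0216), and both dCD intervals then reached just past 0. Fgfr4 then held 0 (14.7, -0.405 to 29.5), while Fgf4 in naive dCD (23.9, 1.10 to 45.4) and Fgf15 in EpiLC dCD (15.7, 0.846 to 30.2) were higher than in control, from 18.8 and 14.6 as counted. After correction, 5.61%, 5.05%, 5.8% and 5.54% of all TSSs differed in these comparisons, in the order above. The median change with state over the 13, as counted, was -1.61, -1.79 and -4.55 points in control, dKO and dCD, against -2.07, -1.79 and -1.70 over all TSSs.

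For comparison, the same count of 50 kb windows was made around Klf4 on chromosome 4 and at a locus on chromosome 17, which the publication also draws. Around Klf4, which encodes a naive pluripotency factor, 2, 3 and 1 of 11 windows differed between the states in control, dKO and dCD, and at the chromosome 17 locus 2, 4 and 5 of 11, against 3, 0 and 3 of 13 here. Of all windows of the genome, 15.1%, 11.5% and 18.9% differed in these comparisons. Between dCD and control, 5 of 11 windows differed around Klf4 in naive cells and 2 in EpiLCs. At the chromosome 17 locus 0 and 2 differed, and here 5 and 6 of 13 (genome 13.9% and 15.5%). Between dKO and control the counts were 0 and 3 around Klf4, 1 and 2 on chromosome 17, and 1 and 2 here (genome 8.46% and 9.95%). The difference between the loci was not tested.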

How the data were processed

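OK-seq was analysed in 12 samples of 6 groups, as the labels name them. The authors aligned reads to mm10 with bowtie2 and deposited 1 track per group, the 2 replicates summed, with Watson and Crick signal in reads per bp of 1 kb bins. Per the labels, FastQC, Trim Galore, Bowtie2 and Picard were used (versions, and removal of duplicates, not given in the sources used here). All values were whole multiples of 0.001, so they were turned into whole reads. Positions in the tracks mark bin ends: read so, 0 reads lay in the 74135 kb of unknown sequence, and read as bin starts, 3045. In all, 126 bins over 10 times the median were left out, 0 of them at the locus. Intervals are Wilson (shares), Newcombe (differences) and exact Poisson (density) at 95%, and sides with under 10 reads were not used.

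The T minus A part was fitted on the Crick share and the T minus A content of a bin, each minus its mean over 10 nearby bins per side, skipping the 2 closest, because a fit on the content of the bin alone, as first planned, fell short on simulated strands. The intervals, calls and slopes were tested on simulated strands. No p-value could be computed from summed replicates. Alternatives varied the flank and side lengths, the window size and offset, the position of the bin, the interval, the depth, the amplitude and the composition. The members and lists were chosen with earlier results of these data known. The text names the 4 member genes, the annotated genes in the window, Klf4, and of the FGF list genes that changed alike with state in at least 2 genotypes, of which there were none, so 7 were named after their values were seen. Python 3.11.15, numpy 2.4.6, scipy 1.17.1 and matplotlib 3.10.9 were used.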

Additional observations from a re-analysis of the deposited data

Results flagged for a closer look

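The change in strand bias with state at the Prdm8 TSS differed between genotypes: EpiLC minus naive in dCD minus that in control was 36.2 points (7.10 to 64.7), and 31.3 (2.30 to 59.9) after T minus A correction. The change itself was -32.9 in control and 3.26 in dCD. For dKO minus control it was 26.2 (-4.69 to 56.3). At the RefSeq start of Prdm8 the change was -11.8 in dCD, -19.1 in control and 2.33 in dKO, so dCD, but not dKO, lay much closer to control there. The dCD difference is 1 of 10 such differences computed for the locus and its 4 TSSs, without correction for their number, the share of all TSSs with such a difference was not computed, and the interval covers counting error only. The cause was not tested.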

How the results depend on the processing

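No paired analysis was possible because the deposited tracks sum the replicates of a group, and for the same reason no replicate could be left out. Of 377 recomputed values under 18 alternatives, 322 stayed within the interval of the reported value, within 1.5 times a count or within 25 kb of a position, 55 moved and 0 called values changed sign. Bins with T minus A within 5 points of 0, the T minus A part together with the amplitude, and the T minus A part for the maxima, the FGF genes and the other loci were chosen after seeing the data.

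Locus strand bias after T minus A correction moved to 13.1 (naive control), 23.98 (naive dKO), 26.3 (EpiLC control), 29.0 (EpiLC dKO) and 38.2 (EpiLC dCD). Divided by the amplitude, it was 34.8 in naive dCD, 42.4 in EpiLC control and 43.9 in EpiLC dKO. With both, it was 13.1 in naive control, 21.98 in naive dKO, 25.96 in naive dCD, 31.7 in EpiLC dKO and 34.8 in EpiLC dCD. In bins of like composition it was 11.7 in naive control, 26.9 in EpiLC control and 29.3 in EpiLC dKO, and with libraries thinned to the smallest 53.2 in EpiLC dCD. Divided by the amplitude, EpiLC minus naive was 18.3 in control and 13.8 in dCD, and dCD minus control in EpiLCs 6.26, or 4.35 with the T minus A part off too. Beside those in the report, intervals that held 0 as counted left 0 for EpiLC minus naive in control with thinned libraries (13.4), and for dKO minus control with flanks of 200 kb (11.98 in naive cells, 5.51 in EpiLCs) and thinned libraries (13.99 in naive cells). Thinning discards reads by a single random draw, so its values add nothing to those from all reads.

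Counts of differing windows moved as follows. For EpiLC minus naive they were 1 (thinned) and 0 (at least 20 points) in control, 1 (25 kb windows) in dKO, and 0 (99% interval) and 1 (20 points) in dCD. For dKO minus control in naive cells they were 0 (windows shifted by 25 kb, position as the start of the bin, 99% interval, 20 points) and 2 (thinned), and in EpiLCs 1 (25 kb windows, thinned, 99% interval) and 0 (20 points). For dCD minus control in naive cells they were 2 (25 kb windows, shifted windows, T minus A off), 0 (99% interval) and 1 (20 points), and in EpiLCs 3 (thinned) and 0 (20 points).

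At TSSs, 50 kb sides gave 9.39 for Prdm8 in EpiLC dKO and 19.7 for Cfap299 in EpiLC control, 10 kb sides gave 7.92 for Fgf5 in EpiLC control, and thinning gave -17.5 for Fgf5 in EpiLC dKO and 4.28 for Cfap299 in EpiLC dCD. Density scaled to chromosome 5 was 1.21, 1.12 and 1.17 in EpiLC control, dKO and dCD. The lowest point of the running sum moved to 34.8 kb in naive dKO and -5.18 kb in EpiLC dKO after correction. Likewise, 0 (dKO) and 1 (dCD) FGF genes changed with state, and 1 window of the chromosome 17 locus differed in control. Where the construction of an alternative does not show it (fewer reads, a stricter limit), the cause was not tested. Depth limits the naive libraries most: a 25 kb side held as few as 12 reads, and wide intervals there do not show that values were alike.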
